A study of Mus musculus with 4 samples.

Results

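The genes described here are 10 components of the mammalian circadian clock: Clock and Arntl, the activators; Per1, Per2 and Cry1, repressors of the core loop; Nr1d1 and Nr1d2, the nuclear receptors of the second loop; Bhlhe40 and Bhlhe41, helix-loop-helix repressors; and Dbp, an output transcription factor. They were taken as listed symbols and matched by the gene name in the deposited tables, which gave 10 of the 55536 genes annotated. They were measured by polyA-selected RNA sequencing in 4 libraries, replicates 1 to 4, of primary macrophages grown from bone marrow of C57BL/6J mice. All 4 libraries belong to 1 group, stimulated for 60 min at 100 ng/mL. One label gives the agent as lipid A, the membrane anchor of bacterial lipopolysaccharide, and another as lipoprotein A, so it is called the stimulus below. Age and sex were not recorded. The labels number the libraries as biological replicates 1 to 4 but give an identical donor entry for all, and do not say whether each came from its own animal or culture. P-values therefore do not extend beyond these libraries, and those of the chi-square test given further on cover counting error only. Unstimulated cells and other times were not analysed here, so no response to the stimulus can be read from these values.

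The clock is a loop in which the CLOCK and BMAL1 proteins (Arntl encodes BMAL1) bind E-box elements and drive Per, Cry, Nr1d and Dbp genes. PER and CRY proteins then repress that activity, while the REV-ERB proteins encoded by Nr1d1 and Nr1d2 repress Arntl through ROR elements (ROREs). In macrophages the loop runs in each cell and times part of the inflammatory response, and BHLHE40, which competes for E-boxes, is also known in immune cells as a repressor of interleukin-10.

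Promoters of these genes were read for letter matches to known elements. A window from 250 bases before to 50 bases after the transcript start was given by RefSeq (build GRCm38.p6) for 8 of the 10 genes, the others being Bhlhe40 and Per2. Both strands were searched for the E-box (CACGTG), the D-box (TTATGTAA or TTATGCAA) bound by DBP, TEF and HLF and opposed by NFIL3, the cyclic AMP response element (CRE, TGACGTCA) and the RORE. Some genes have several starts, and the 8 genes hold 12 windows. The E-box occurred in 3 of the 12 windows, 1 each of Per1, Cry1 and Bhlhe41, and in 7.15% of all 32851 windows. The windows of Nr1d1, Nr1d2 and Dbp held no E-box. The D-box occurred in 1 window, of Per1, against 1.66% of all windows, and the RORE in 1 window, of Arntl, against 0.384%. The CRE occurred in 0 of the 12, against 1.79% of all windows. These are matches of letters in a window and are not measured binding sites. The stretches below are the parts of those windows that lie before the start and outside annotated exons, except for Arntl. They are read 5′ to 3′ on the strand of the gene with the motif in capitals. Some end short of the start, with 240 bases shown for Cry1 and 112 for Bhlhe41. Distances are counted to the start and not to the end of the stretch. Of 16 other genes of the pathway with a window, 2 held a D-box, Per3 and Timeless. Per3, with values given further on, is shown beside the listed genes. In Per1 (chr11:69098699-69098947, plus strand) the E-box begins 166 bases and the D-box 24 bases before the start. Per1 has 2 windows, and this one lies inside the annotated gene, which begins at 69095217. The other window held no match. In Cry1 (chr10:85185065-85185304, minus strand) the E-box begins 60 bases before the start, and in Bhlhe41 (chr6:145865559-145865670, minus strand) 153 bases before it. In Per3 (chr4:151044666-151044915, minus strand) copies of the D-box begin 205 and 158 bases before the start. For Arntl (chr7:113207528-113207557, plus strand) only 30 bases are shown, around a RORE that begins 27 bases after the start.
Per1: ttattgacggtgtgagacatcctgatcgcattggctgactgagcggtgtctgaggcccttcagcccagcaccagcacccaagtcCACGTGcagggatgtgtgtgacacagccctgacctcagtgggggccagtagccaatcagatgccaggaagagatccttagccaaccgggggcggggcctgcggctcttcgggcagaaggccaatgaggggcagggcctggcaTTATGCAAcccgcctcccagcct
Cry1: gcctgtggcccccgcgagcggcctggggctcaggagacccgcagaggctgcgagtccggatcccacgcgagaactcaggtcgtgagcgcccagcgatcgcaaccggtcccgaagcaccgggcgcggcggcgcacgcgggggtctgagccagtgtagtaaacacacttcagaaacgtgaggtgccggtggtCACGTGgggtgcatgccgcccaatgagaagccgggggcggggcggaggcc
Bhlhe41: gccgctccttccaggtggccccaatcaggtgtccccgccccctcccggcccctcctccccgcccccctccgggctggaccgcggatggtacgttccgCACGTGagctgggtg
Per3: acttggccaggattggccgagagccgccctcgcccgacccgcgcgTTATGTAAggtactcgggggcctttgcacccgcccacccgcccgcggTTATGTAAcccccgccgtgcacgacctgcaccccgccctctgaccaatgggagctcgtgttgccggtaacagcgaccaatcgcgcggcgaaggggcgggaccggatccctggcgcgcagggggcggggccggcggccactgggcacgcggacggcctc
Arntl: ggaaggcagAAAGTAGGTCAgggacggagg

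Total gene counts ranged from 26917324 to 39438414 per library. Replicate 1 had the highest share of ribosomal RNA counts, at 12.43%, against 3.461% to 7.279% in the others. All 10 macrophage markers reached 1 TPM (transcripts scaled by length and library total) in every library, and none of the 4 B cell, 4 T and NK cell or 4 dendritic cell markers did. Of 8 neutrophil and granulocyte precursor markers 4 did, with a summed level of 69 to 727.7 TPM that was highest in replicate 3. The 6 proliferation markers summed to 870.9 TPM in replicate 1 and 243.8 to 471.7 TPM in the others. Pcna made up 652.6 TPM of the sum in replicate 1. Pcna, Mcm6, Top2a and Rrm2 were highest in replicate 1, while Mki67 was highest in replicate 2 (49.2 against 38.3 TPM in replicate 1) and Ccnb1 was about equal in replicates 1 and 3 (5.07 and 5.08 TPM). Since replicate 1 differs in these measures, ranges are also given without it for Cry1 and for the genes called variable further on, where these change. Ranges of other genes without it are not given.

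On the per-length TPM scale, which allows levels of different genes to be compared, Bhlhe40 was the highest of the 10 clock genes and Per2 the lowest. Of the 10 genes, 9 reached 1 TPM in every library, all but Per2, against 43.8% of 22028 protein-coding genes. The order of mean TPM was Bhlhe40, Dbp, Bhlhe41, Nr1d2, Clock, Per1, Nr1d1, Arntl, Cry1 and Per2, in which the place of Cry1 depends on the estimator, as given below. Each neighbouring pair in that order had overlapping ranges over the 4 libraries, except Cry1 and Per2. Bhlhe40 was above Dbp in 4 of 4 libraries, whereas Dbp was above Bhlhe41 in only 2 of 4. The other pairs that overlap kept their order in 3 of 4 libraries each.

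**Figure D1:**
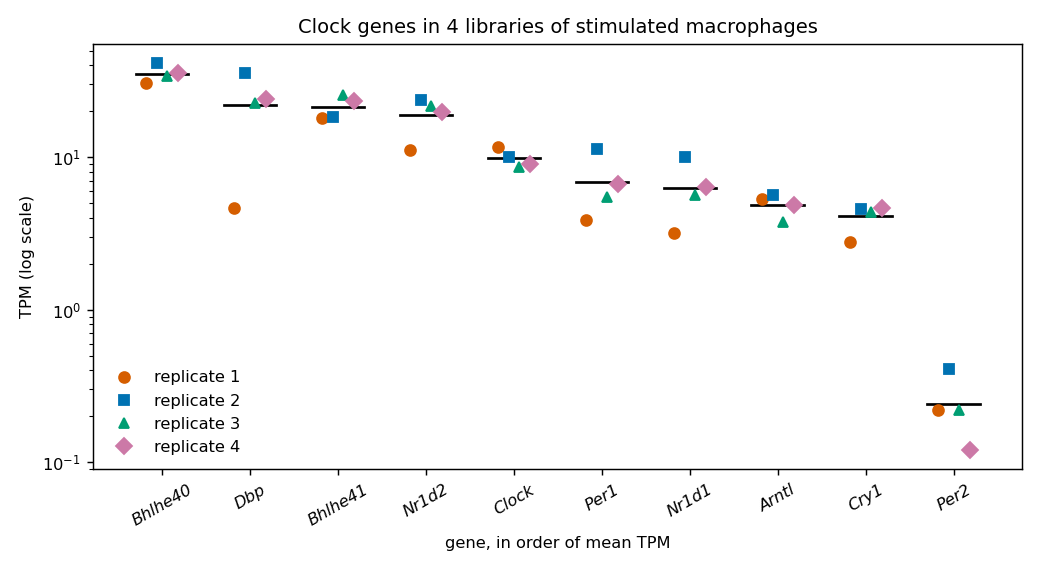
TPM (log scale) of the 10 clock genes in each of the 4 libraries, in order of mean TPM; symbols are replicates and bars are means. Bhlhe40 lies between 30.48 and 41.26 TPM, and Dbp runs from 4.63 in replicate 1 to 35.89 in replicate 2.

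The activators were present at steady, modest levels. Clock (ENSMUSG00000029238.11, chr5:76209868-76304792, minus strand), which encodes the histone acetyltransferase partner of the activating pair, was at 11.74, 10.08, 8.68 and 9.08 TPM in replicates 1 to 4, a mean of 9.895 ± 1.36 (SD, n = 4). Arntl (ENSMUSG00000055116.8, chr7:113207465-113314126, plus strand), its partner, was at 5.29, 5.63, 3.77 and 4.83 TPM, a mean of 4.88 ± 0.809 (SD, n = 4). Clock was highest in replicate 1 and Arntl was lowest in replicate 3. Their ranges do not overlap, and the ratio of Clock to Arntl was 2.22, 1.79, 2.3 and 1.88. Clock is divided over 6 annotated transcripts. The deposited tables differ in which one leads: Clock-205 carried 77.4% of the gene's TPM on average in the first transcript table and 22% in the second, where Clock-201 led with 65.4%. For Arntl, Arntl-201 led in both tables, with 82.3% and 71.8%.

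Of the core repressors, Per1 was well above Per2. Per1 (ENSMUSG00000020893.17, chr11:69095217-69109960, plus strand), the period gene known as an immediate-early gene, was at 3.86, 11.30, 5.50 and 6.65 TPM, a mean of 6.828 ± 3.19 (SD, n = 4). Per2 (ENSMUSG00000055866.9, chr1:91415982-91459324, minus strand), its paralog, was at 0.22, 0.41, 0.22 and 0.12 TPM, a mean of 0.2425 ± 0.121 (SD, n = 4), from 21, 45, 30 and 18 counts. Both were highest in replicate 2, and the ranges of the paralogs do not overlap. The ratio of Per1 to Per2 was 17.5, 27.6, 25.0 and 55.4. Cry1 (ENSMUSG00000020038.10, chr10:85131700-85185064, minus strand), which encodes the cryptochrome that binds and blocks the activators, was at 2.79, 4.58, 4.38 and 4.66 TPM, a mean of 4.103 ± 0.883 (SD, n = 4). Replicate 1 was low for Cry1 and the other three lay close together. The levels of Cry1 and Per2 depend on the estimator. The authors' posterior mean in place of their maximum-likelihood value gave a mean of 10.38 TPM for Cry1 and 1.9 TPM for Per2. Per1 was at 7.025 TPM by the posterior mean, so the gap between Per1 and Per2 was much smaller there. On that estimate Cry1 moves up the order of the 10 genes, above Clock (9.503 TPM), Per1, Nr1d1 and Arntl.

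Among the REV-ERB genes Nr1d2 was higher than Nr1d1 in each library. Nr1d1 (ENSMUSG00000020889.11, chr11:98767932-98775333, minus strand), which encodes REV-ERB alpha, was at 3.19, 10.02, 5.64 and 6.40 TPM, a mean of 6.312 ± 2.83 (SD, n = 4). Nr1d2 (ENSMUSG00000021775.11, chr14:18204054-18239127, minus strand), which encodes REV-ERB beta, was at 11.22, 23.54, 21.58 and 19.77 TPM, a mean of 19.03 ± 5.43 (SD, n = 4). Both were lowest in replicate 1 and highest in replicate 2 by these values, and their ranges do not overlap. In the deposited second quantification Nr1d2 was instead highest in replicate 3, at 19.45 TPM against 15.72 in replicate 2. The ratio of Nr1d2 to Nr1d1 was 3.52, 2.35, 3.83 and 3.09. Nr1d1 shares 263 of its 3077 exon bases with Thra, a thyroid hormone receptor gene on the opposite strand at 4.85, 9.22, 6.17 and 7.84 TPM. The strand setting of the counting is not given in the sources used here, so reads from the shared bases cannot be told apart.

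Bhlhe40 and its paralog Bhlhe41 both stayed within a narrow range. Bhlhe40 (ENSMUSG00000030103.11, chr6:108660629-108666925, plus strand) was at 30.48, 41.26, 34.17 and 35.59 TPM, a mean of 35.38 ± 4.48 (SD, n = 4), and ranked 3027 of 22028 protein-coding genes by mean TPM. Bhlhe41 (ENSMUSG00000030256.11, chr6:145858243-145865558, minus strand) was at 18.06, 18.24, 25.65 and 23.36 TPM, a mean of 21.33 ± 3.79 (SD, n = 4). Both were lowest in replicate 1, but Bhlhe40 was highest in replicate 2 and Bhlhe41 in replicate 3 on this scale. In the deposited second quantification Bhlhe41 was instead lowest in replicate 2, at 14.14 TPM against 15.91 in replicate 1. The ranges do not overlap, and the ratio of Bhlhe40 to Bhlhe41 was 1.69, 2.26, 1.33 and 1.52. The full-length transcript Bhlhe40-201 carried 96.9% of the gene's TPM on average in the first transcript table and 86.1% in the second. For Bhlhe41, Bhlhe41-201 carried 79.8% and 70.2%. The short coding transcript Bhlhe41-202 was at 3.1, 1.59, 8.52 and 4.27 TPM, highest in replicate 3. Of its 744 bases 647 are shared with Gm43909, an unclassified transcript on the opposite strand that was at 0.43 to 1.07 TPM.

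Dbp (ENSMUSG00000059824.12, chr7:45705088-45710203, plus strand), whose product activates genes through the D-box, was at 4.63, 35.89, 22.77 and 24.05 TPM, a mean of 21.84 ± 12.9 (SD, n = 4). Replicate 1 was far below the other 3 libraries, which lay between 22.77 and 35.89 TPM. Dbp had 69 counts in replicate 1, against 824, 513 and 703 in replicates 2 to 4. Transcript levels and shares of Dbp in replicate 1 thus rest on few counts. In the deposited second quantification Dbp was at 3.01, 22.53, 18.16 and 18.24 TPM, with replicate 1 again the lowest. The transcripts annotated as protein coding had a wider range over the 4 libraries than the gene. These summed to 1.35, 28.65, 11.89 and 17.03 TPM in replicates 1 to 4, a 21.2-fold range, and the second quantification gave a 21.4-fold range. The retained-intron transcripts, which keep an intron and do not encode the protein, summed to 3.28, 7.23, 10.88 and 7.01 TPM, a 3.32-fold range, and spanned 4.01-fold in the second quantification. Without replicate 1 the coding range was 2.41-fold and the retained-intron range 1.55-fold, and in the second quantification 1.89-fold and 1.85-fold, so the gap between the transcript types rests on that library. Without replicate 2 the coding range was 12.6-fold in the first table, and without replicate 3 the retained-intron range was 2.2-fold there and 2.57-fold in the second. The coding share of Dbp was thus 29.2%, 79.8%, 52.2% and 70.8%. It was lowest in replicate 1 and highest in replicate 2 in both quantifications. Nearly all of the retained-intron level came from Dbp-202 (chr7:45707889-45709896, 815 bases), at 3.28, 6.92, 10.51 and 6.88 TPM. Dbp shares 539 of its 2993 exon bases with Sphk2, a sphingosine kinase gene on the opposite strand at 23.16, 29.82, 21.01 and 25.45 TPM. The shared part was 28.5% of Dbp-202, 29.3% of the coding transcript Dbp-201 and 38.9% of the coding transcript Dbp-204. Dbp-204 was at 0, 11.24, 6.32 and 5.81 TPM. A part of Sphk2 reads in any of them was not tested.

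**Figure D2:**
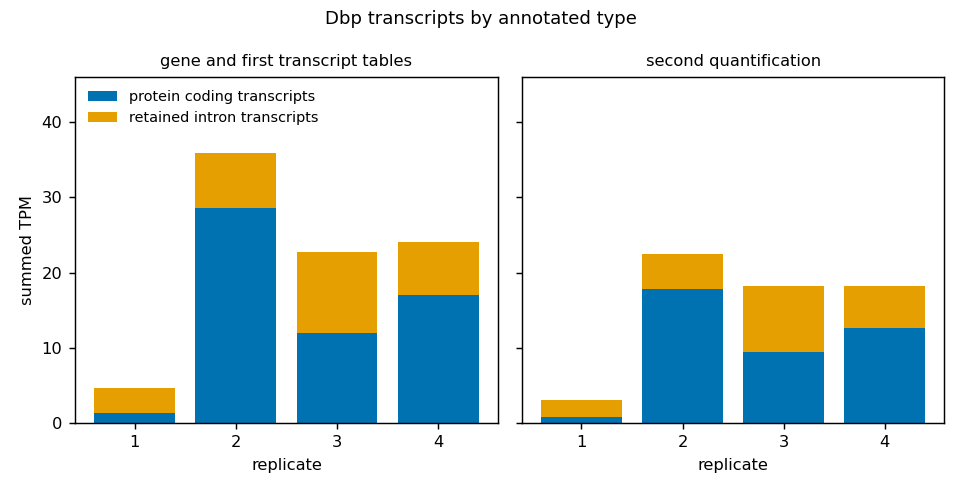
Summed TPM of Dbp transcripts annotated as protein coding and as retained intron, by replicate, in the first transcript tables (left) and the second quantification (right). The coding bar is 1.35 TPM in replicate 1 and 28.65 in replicate 2 on the left, while the retained-intron part stays between 3.28 and 10.88.

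Variation between libraries was tested for each gene by a chi-square test of its counts against equal rates in the 4 libraries, with Benjamini-Hochberg adjustment over the 12626 genes whose counts averaged 10 or more. A gene was called variable at an adjusted p under 0.05 with at least a 2-fold range of scaled counts. Reads are not independent molecules, so the test covers counting error only. Of the 10 clock genes 5 were called variable, Per1, Per2, Nr1d1, Nr1d2 and Dbp, against 33% of all genes tested. By adjusted p alone, at any range, 10 of 10 passed, against 88.6% of all genes. In a bulk sample fewer expressing cells and less RNA per cell cannot be told apart.

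Dbp had the widest range of the 10, 10.9-fold (chi-square adjusted p 1.91e-123). Nr1d1 spanned 3.22-fold (adjusted p 1.28e-36) and Per1 3.00-fold (adjusted p 3.82e-76). Nr1d2 spanned 2.16-fold (adjusted p 1.76e-87). All 4 were lowest in replicate 1. Dbp, Nr1d1 and Per1 were highest in replicate 2, and Nr1d2 was about equal in replicates 2 and 3. Per2 spanned 3.14-fold (adjusted p 0.000166), between replicates 2 and 4, at 18 to 45 counts a library.

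The activators and the BHLHE repressors stayed within 2-fold. Clock spanned 1.14-fold, Bhlhe40 1.36-fold, Arntl 1.40-fold and Bhlhe41 1.41-fold, and Cry1 spanned 1.83-fold. The SD of log2(CPM + 1), where CPM is the count relative to the scaled library size, was 0.08 for Clock, 0.19 for Bhlhe40 and Arntl, 0.21 for Bhlhe41, 0.35 for Cry1 and 0.31 for Per2. It was 0.52 for Nr1d2, 0.62 for Per1, 0.63 for Nr1d1 and 1.32 for Dbp. The median was 0.33 over the 10 genes and 0.27 over all genes tested. The deposited credibility intervals of the TPM, whose level is not stated, were disjoint in 5 of 6 library pairs for Bhlhe40, Nr1d1 and Dbp and in 0 of 6 for Per2 and Cry1.

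**Figure D3:**
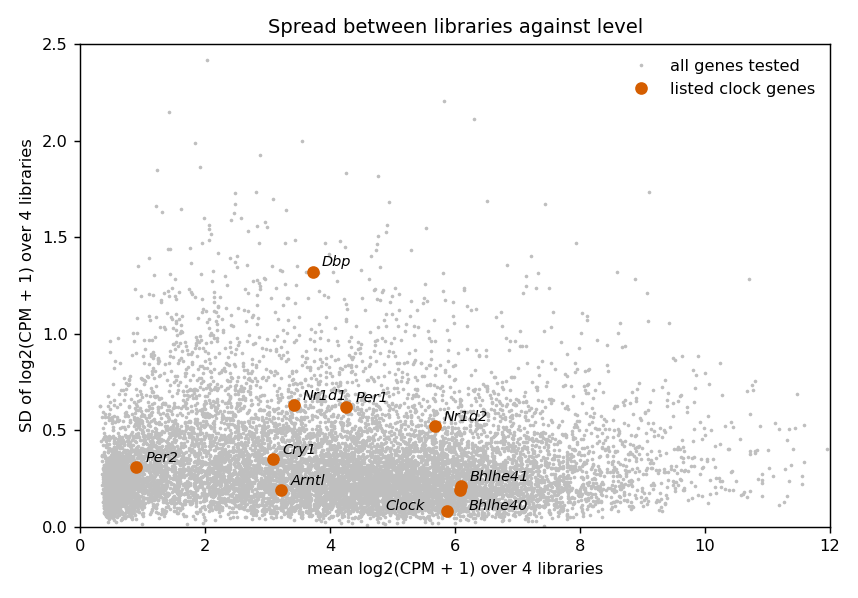
SD of log2(CPM + 1) over the 4 libraries against its mean for 12626 tested genes (grey) and the 10 clock genes (orange); 15 genes lie beyond the level axis and 3 beyond the spread axis. Dbp stands at 1.32, Nr1d1, Per1 and Nr1d2 at 0.52 to 0.63, and Clock at 0.08.

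The pattern over libraries was shared by several members. Dbp deviated from its mean by -1.90, 1.11, 0.21 and 0.58 in replicates 1 to 4 on the log2(CPM + 1) scale. Nr1d1 deviated by -0.83, 0.68, -0.01 and 0.17, and Per1 by -0.73, 0.76, -0.17 and 0.14. Nr1d2, at -0.78, 0.30, 0.31 and 0.17, was equally low in replicate 1 but level across the other three. The activators did not share this order, with Clock at 0.11, -0.01, -0.07 and -0.03 and Arntl at 0.07, 0.14, -0.28 and 0.08. Of the 10 genes 7 were lowest in replicate 1, against 32.6% of all genes tested. Both lowest in replicate 1 and highest in replicate 2 were 4, Bhlhe40, Per1, Nr1d1 and Dbp, against 12.3%. Called variable and lowest in replicate 1 were 4, Per1, Nr1d1, Nr1d2 and Dbp, against 11.7%. These patterns were chosen after the values were seen, and the counts describe these libraries. The median deviation of the 10 genes was -0.39, 0.24, 0.0 and 0.16. Over all genes it lay between -0.02 and 0.01, where scaling and centring on gene means hold it near 0. The departure of the 10 genes from it was not tested.

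Without replicate 1 only 1 of the 10 genes, Per2, was called variable, while 16.1% of all genes were. The range over the remaining libraries was then 1.97-fold for Per1, 1.92-fold for Dbp, 1.68-fold for Nr1d1 and 1.11-fold for Nr1d2, and for Cry1 it was 1.09-fold. Without replicate 2, Nr1d1, Nr1d2 and Dbp were called, Per1 spanned 1.91-fold and Per2 1.80-fold (chi-square adjusted p 0.138), and without replicate 4 Per2 was not called. Scaling on counts without ribosomal RNA and mitochondrial genes left the same 5 calls. Replicate 1 had the highest ribosomal RNA share and the highest level of 4 of the 6 proliferation markers, and their part in the low values was not tested.

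**Figure D4:**
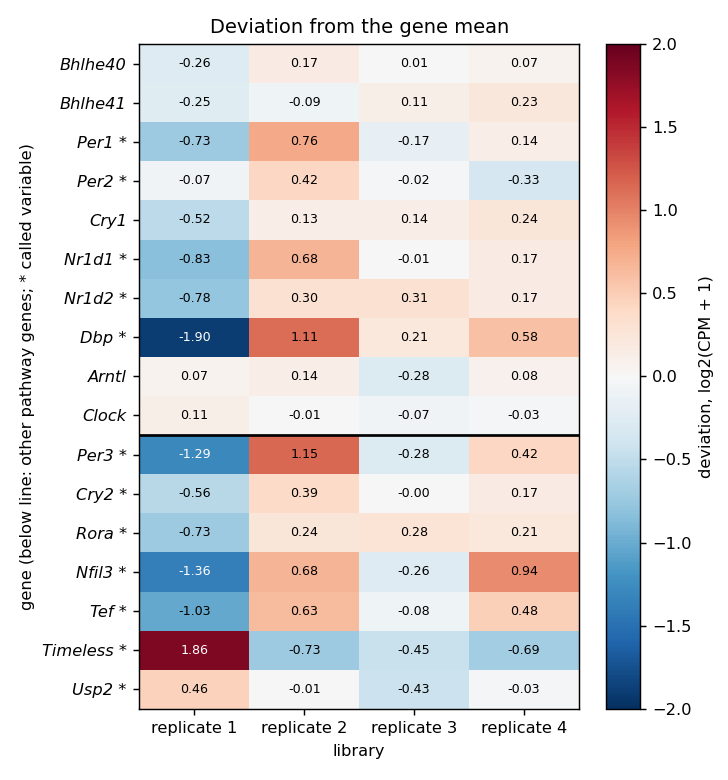
Deviation of log2(CPM + 1) from the gene mean by library for the 10 clock genes (above the line) and the 7 pathway genes called variable (below), with asterisks on genes called variable. Dbp, Nr1d1, Nr1d2 and Per1 are at -0.73 or lower in replicate 1, Clock and Arntl stay within 0.28 of 0, and Timeless is at 1.86 in replicate 1.

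The rest of the pathway was followed in 20 further genes, of which 14 had enough counts to test and 7 were called variable, against the same 33% of all genes. Of the 14 tested, 5 were both called variable and lowest in replicate 1, Nfil3, Tef, Per3, Cry2 and Rora, against 11.7% of all genes tested. Over all genes, 1478 of the 4167 called variable were lowest in replicate 1. Nfil3, the repressor that competes with DBP for the D-box, was at 6.50, 28.81, 13.86 and 32.47 TPM and spanned 5.45-fold. Tef, a relative of Dbp, was at 7.14, 23.82, 12.74 and 18.83 TPM and spanned 3.30-fold. Per3, the third period gene, was at 0.34, 3.40, 0.90 and 1.64 TPM and spanned 9.00-fold. The D-box activators Dbp and Tef and the period genes Per1 and Per3 were each highest in replicate 2, and Nfil3 in replicate 4. Timeless, the other pathway gene with a D-box in its window, was highest in replicate 1. The ratio of Dbp to Nfil3 was 0.712, 1.25, 1.64 and 0.741, so neither factor was higher in all libraries. Cry2, the paralog of Cry1, was at 0.82, 1.88, 1.28 and 1.45 TPM and spanned 2.43-fold. Rora, whose product activates Arntl through the RORE that REV-ERB represses, was at 2.02, 3.22, 3.15 and 2.99 TPM and spanned 2.13-fold. Like Nr1d2, Rora was low in replicate 1 and level in the others, and the ratio of Nr1d2 to Rora was 5.55, 7.31, 6.85 and 6.61. Replicate 1 was instead the highest library for Timeless and Usp2, the remaining pathway genes called variable. Timeless, a replication fork gene named after a fly clock gene, was at 11.72, 1.53, 2.41 and 1.42 TPM and spanned 7.48-fold, and Usp2, a deubiquitinase under clock control, was at 1.77, 0.99, 0.92 and 0.70 TPM, from 16 to 46 counts, and spanned 3.78-fold. Without replicate 1, Per3 (3.19-fold), Nfil3 (2.37-fold) and Usp2 (2.09-fold) were the 3 pathway genes called. The range was then 1.65-fold for Tef, 1.41-fold for Cry2, 1.27-fold for Timeless and 1.05-fold for Rora. Without replicate 2, Per3 spanned 5.05-fold and Cry2, at 1.99-fold, was not called, and without replicate 3 Usp2 was not called, at 1.87-fold (chi-square adjusted p 0.00853).

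Several enzyme genes that act on clock proteins are named because they averaged at least 10 TPM, and those below spanned less than 2-fold. Csnk1e, a kinase of PER proteins, was at 13.42, 23.15, 20.54 and 22.55 TPM and spanned 1.94-fold, again lowest in replicate 1. Its paralog Csnk1d was at 46.01 to 54.32 TPM. Fbxw11, a ligase subunit that recognises phosphorylated PER, was at 39.12 to 59.50 TPM, and the kinase gene Gsk3b at 25.30 to 42.07 TPM. Usp2, given above, and Btrc, at a mean of 7.545 TPM, are enzyme genes of the pathway below that level. Of the 20 genes, 6 were too low to test.

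For each clock gene called variable, the genes with the nearest profile were sought among 1296 other variable protein-coding genes with a mean of at least 10 TPM, by the root mean square difference of the deviations over the 4 libraries. With 4 points per gene, close profiles are a description only. Nearest to Dbp were Cd86, a co-stimulatory ligand (difference 0.117 on the log2 scale, at 9.24, 64.05, 33.99 and 41.51 TPM), Clec10a, a lectin gene (0.131), and Cenpa, a centromere histone gene (0.142, at 8.4, 95.7, 45.76 and 67.41 TPM). Nearest to Per1 were Ermard (0.04), the cytokine gene Il15 (0.042, at 29.51, 96.18, 40.69 and 58.64 TPM) and the inhibitory Fc receptor gene Fcgr2b (0.042). Fcgr2b (0.069) was also among the nearest to Nr1d1, with Inpp4a (0.048) and Ifi209 (0.065). Nearest to Nr1d2 were Acsf2 (0.03), Reps2 (0.031) and the ATP-gated channel gene P2rx4 (0.042, at 146.8, 329.5, 295.6 and 273.1 TPM). Nearest to Per2 were the chemokine gene Ccl8 (0.165), Rpl10-ps3 (0.218) and Nt5c3 (0.239), at larger differences than for the other 4 genes.

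One recorded technical difference divides the libraries, since replicates 1 and 2 were made from 6 read files and replicates 3 and 4 from 4. Libraries with fewer files were compared with those with more by edgeR's quasi-likelihood test with Benjamini-Hochberg adjustment. For Dbp, Nr1d1 and Per1 the lowest and highest libraries, replicates 1 and 2, share an arm, so the comparison says little about these genes. Replicates 3 and 4 also had the higher total gene counts. None of the 10 clock genes passed, against 0% of 12701 genes tested, with 290 genes and 0 of the 10 at an unadjusted p under 0.05, and DESeq2 called 33 genes and none of the 10. The log2 difference was 0.34 for Bhlhe41 (unadjusted p 0.199) and 0.07 for Bhlhe40 (unadjusted p 0.8). Without replicate 2, Dbp alone of the 10 passed, at a log2 difference of 2.74 (edgeR adjusted p 0.0353) from a comparison in which replicate 1 is the single library of its arm and is assumed to vary like the others.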

How the data were processed

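PolyA-selected RNA of 4 libraries was sequenced. The authors made expected counts (estimated counts, not whole) per gene and transcript from alignments to the mm10 transcriptome with GENCODE M21, and deposited them with TPM, per the file headers and file lists. The deposited tables also hold bounds of a credibility interval of the TPM, a signal whose level is not stated, and a second transcript quantification made directly from reads. For the aligner, the counter and its use of strand, names and settings were not given in the sources used here. File lists in the deposit, other text with no measurement, gave the number of read files.

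Expected counts were rounded. Rows that name no gene held 0.1028% to 0.1176% of counts and were left out. Libraries were scaled by TMM (edgeR 4.0.16, with limma 3.58.1, R 4.3.3). The chi-square test (SciPy 1.17.1) had 3 degrees of freedom, and DESeq2 1.42.0 served as an alternative. Both tests were tested on simulated data. Log2 values are log2(CPM + 1). TPM was used for levels between genes. The 10 genes are all named, as are pathway genes that were called variable or averaged at least 10 TPM, and the 3 nearest profiles per variable gene, except an item that is not reported here. The genes and lists were chosen with earlier results of these data known. Depth was 26917324, 30042947, 35277710 and 39438414 gene counts. Alternatives covered scaling, filter, fold threshold, quantification, test and each library left out.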

Additional observations from a re-analysis of the deposited data

Results flagged for a closer look

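In all, 24 clock and pathway genes were tested for a library far from the other 3. The measure was the gap to its nearest neighbour as a share of the range, and 3 genes had such a library. The rule is set to pass about 1 in 20 genes where values are independent and normal. The share over all genes was not computed, so 3 of 24 cannot be read as an excess. Cry1 was lowest in replicate 1, at 2.79 TPM, while the other libraries lay between 4.38 and 4.66 TPM. Btrc, a ligase subunit gene that acts on PER proteins, was lowest in replicate 2, at 6.53 TPM, but did not vary beyond counting noise (chi-square adjusted p 0.135). Timeless was highest in replicate 1, at 11.72 TPM, the library in which 4 of the 6 proliferation markers were also highest, and their part in that value was not tested. Without replicate 1 Timeless spanned 1.27-fold.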

How the results depend on the processing

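With each library left out in turn, the number of the 10 clock genes called variable ran from 1 to 5, the share of all genes from 16.1% to 29.2% and the number of pathway genes from 3 to 7, each lowest without replicate 1. Of the 10, 3 were called without replicate 2. A 1.5-fold threshold gave 58.2% of all genes, 11 pathway genes and 6 of the 10, adding Cry1. The read-file comparison called 0 to 98 genes, and 0 or 1 of the 10, over the left-out libraries, with 98 and 1 (Dbp) without replicate 2 and 1 gene in all without replicate 1. The second quantification called 10 genes and DESeq2 33. Under the other scalings, and in the second quantification, the same 5 of the 10 were called. Where causes are not given by the fewer libraries or the threshold itself, the cause was not tested. No paired analysis was possible because all 4 libraries belong to 1 group. The ranges of single pathway genes and of Dbp transcript types without each library were added after seeing the data. At 18 to 45 counts, depth limits Per2.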
